A study of Mus musculus with 30 samples.

Results

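The 7 genes described here encode the myosin light chains of striated muscle and the kinase that phosphorylates 1 class of them: Mylpf, Myl2, Myl1, Myl3, Myl4, Myl6b and Mylk2. They were chosen by name, from the family they belong to, and are 7 of the 33076 genes counted. All 7 were measured in every library and passed the filter on low counts in every fit. The study sequenced messenger RNA from the diaphragm of 15 male mice, with a perisynaptic piece that holds neuromuscular junctions and an extrasynaptic piece that holds none from each animal, 30 libraries in all. BACfxAR121 mice, called SBMA here after the disease they model (spinal and bulbar muscular atrophy), carry a human androgen receptor transgene with an expanded polyglutamine repeat. The control group is HSA-Cre;BACfxAR121 littermates, which carry the same transgene and a Cre recombinase under the human skeletal actin promoter that removes it from muscle fibres, so the transgene remains in their other cells and no transgene-free group is compared. Each region was taken from 4 SBMA and 3 control mice at 15 weeks, and from 4 SBMA and 4 control mice at 26 weeks.

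Each head of the myosin motor carries a pair of light chains that stiffen its lever arm. The regulatory chain sits next to the thick filament and can be phosphorylated near its start, which raises the force produced at a given calcium level. The essential chain sits nearer the motor domain and can influence the speed at which myosin moves actin. Fast fibres use Mylpf as regulatory and Myl1 as essential chain, while slow fibres and ventricle use Myl2 and Myl3. Myl4 is the essential chain of atrium and of embryonic skeletal muscle, and Myl6b is a non-muscle and slow muscle essential chain. Mylk2 is the calcium- and calmodulin-dependent light chain kinase of skeletal muscle.

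The kinase and its substrates meet at a serine close to the start of both regulatory chains, so the beginning of each coding sequence is shown here from GENCODE vM21, with the codon of that serine in capitals.
Mylpf: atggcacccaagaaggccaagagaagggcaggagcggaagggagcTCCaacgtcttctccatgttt
Myl2: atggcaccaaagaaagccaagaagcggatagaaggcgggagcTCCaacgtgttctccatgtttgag
Counted from the start codon as 1, the serine is codon 16 of the 169-residue Mylpf protein and codon 15 of the 166-residue Myl2 protein. Phosphorylation was not measured, and the values below are transcript levels only.

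The genes lie on 7 chromosomes of GRCm38. Mylpf (ENSMUSG00000030672.12) spans chr7:127208890-127214298 and Myl2 (ENSMUSG00000013936.12) spans chr5:122100951-122113472, both on the plus strand. Among the essential chains, Myl1 (ENSMUSG00000061816.15) lies at chr1:66924295-66945404 on the minus strand and Myl3 (ENSMUSG00000059741.13) at chr9:110741861-110769798 on the plus strand. Myl4 (ENSMUSG00000061086.12) lies at chr11:104550663-104595753 on the plus strand and Myl6b (ENSMUSG00000039824.4) at chr10:128494157-128498685 on the minus strand. Mylk2 (ENSMUSG00000027470.9) is at chr2:152911352-152923068 on the plus strand. Counts are summed over the exons of each gene, so alternative forms of Myl1 are not separated. A pseudogene, Mylf-ps, is at least 95% identical to Myl1 over 100 bases or more. Its level was at most 0.242% of the Myl1 level in any library. Short exonic overlaps with a gene on the other strand occur in Myl2 (60 bases, Ccdc63) and Myl3 (95 bases, Pth1r), and the strand setting of the counting is not given in the sources used here.

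Total counts per library ranged from 16280873 to 34694446. The 6 skeletal muscle fibre markers Acta1, Ckm, Mb, Des, Ttn and Actn2 were all detected in every group. Their summed level, in CPM (counts scaled to the size of the library), was 66754 to 81978 in control libraries, 48280 to 55927 in SBMA libraries at 15 weeks and 38872 to 45887 in SBMA libraries at 26 weeks. The members were read against the same total, so this lower fibre marker level moves with every fall reported below, and its part in those falls was not tested. Within that list desmin moved the other way at 26 weeks, by 0.37 ± 0.11 (log2 fold change ± SE, adjusted p = 0.0304) in perisynaptic and 0.34 ± 0.08 (adjusted p = 0.00582) in extrasynaptic pieces. Marker lists of other cell types also differed at 26 weeks, and their part was not tested either. The summed level of the 4 genes of synaptic nuclei was 191 to 208 CPM in SBMA and 143 to 161 CPM in control perisynaptic pieces, and 98.4 to 113 and 25.2 to 68.9 CPM in extrasynaptic pieces. The 5 macrophage genes summed to 65.3 to 77.1 CPM in SBMA and 92.4 to 130.2 CPM in control extrasynaptic pieces, and overlapped in perisynaptic pieces. Endothelial genes in perisynaptic pieces (268.5 to 314 against 327 to 541 CPM) and mesothelial genes in extrasynaptic pieces (86.7 to 239.8 against 254 to 297 CPM) were also lower in SBMA without overlap. At 15 weeks the genes of synaptic nuclei were already higher in SBMA extrasynaptic pieces (59.9 to 88.3 against 35.8 to 39.7 CPM). They overlapped in perisynaptic pieces of that age. In bulk tissue, fewer cells of a type and less RNA per cell cannot be told apart. Excision of the transgene in the control group was not checked here.

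In control perisynaptic pieces at 26 weeks the order of the 7 genes per kilobase of their main transcript ran from Mylpf to Myl4. Mylpf stood at 6989 ± 1931 CPM per kilobase (SD, n = 4), Myl1 at 2504 ± 490.5, Myl2 at 1543 ± 326 and Myl3 at 674 ± 200. The kinase Mylk2 was at 87.7 ± 7.90 CPM per kilobase, Myl6b at 11.1 ± 3.68 and Myl4 at 2.34 ± 0.457. No neighbours in this order came within 1 SD of each other. Together the 7 genes held a group mean of 0.509% to 0.8905% of all counts.

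At 26 weeks the adult fast chains, the slow essential chain and the kinase were lower in SBMA than in control diaphragm, while the minor essential chains were higher. In perisynaptic pieces Mylpf, Myl1, Myl3 and Mylk2 fell and Myl4 and Myl6b rose, 6 of 7 members, where 14.0% of all 15735 genes tested were called at an adjusted p under 0.05 by edgeR (8.04% higher, 5.97% lower). In extrasynaptic pieces the same 4 fell and Myl6b rose, 5 of 7, where 32.2% of 15526 genes were called (16.1% in each direction). At 15 weeks 3 of 7 members (Mylpf, Myl1, Mylk2) fell in extrasynaptic pieces, against 1.22% of all genes (0.67% lower). None was called in perisynaptic pieces at 15 weeks, where edgeR called 0.21% of genes, 3 members had an unadjusted p under 0.05 (Mylpf, Myl1, Mylk2), and DESeq2 called 1. The median log2 fold change over the 7 members was -0.53 in both regions at 26 weeks, beside -0.02 and -0.03 over all genes, and at 15 weeks it was -0.13 in perisynaptic and -0.33 in extrasynaptic pieces, beside -0.01 in each.

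**Figure D1:**
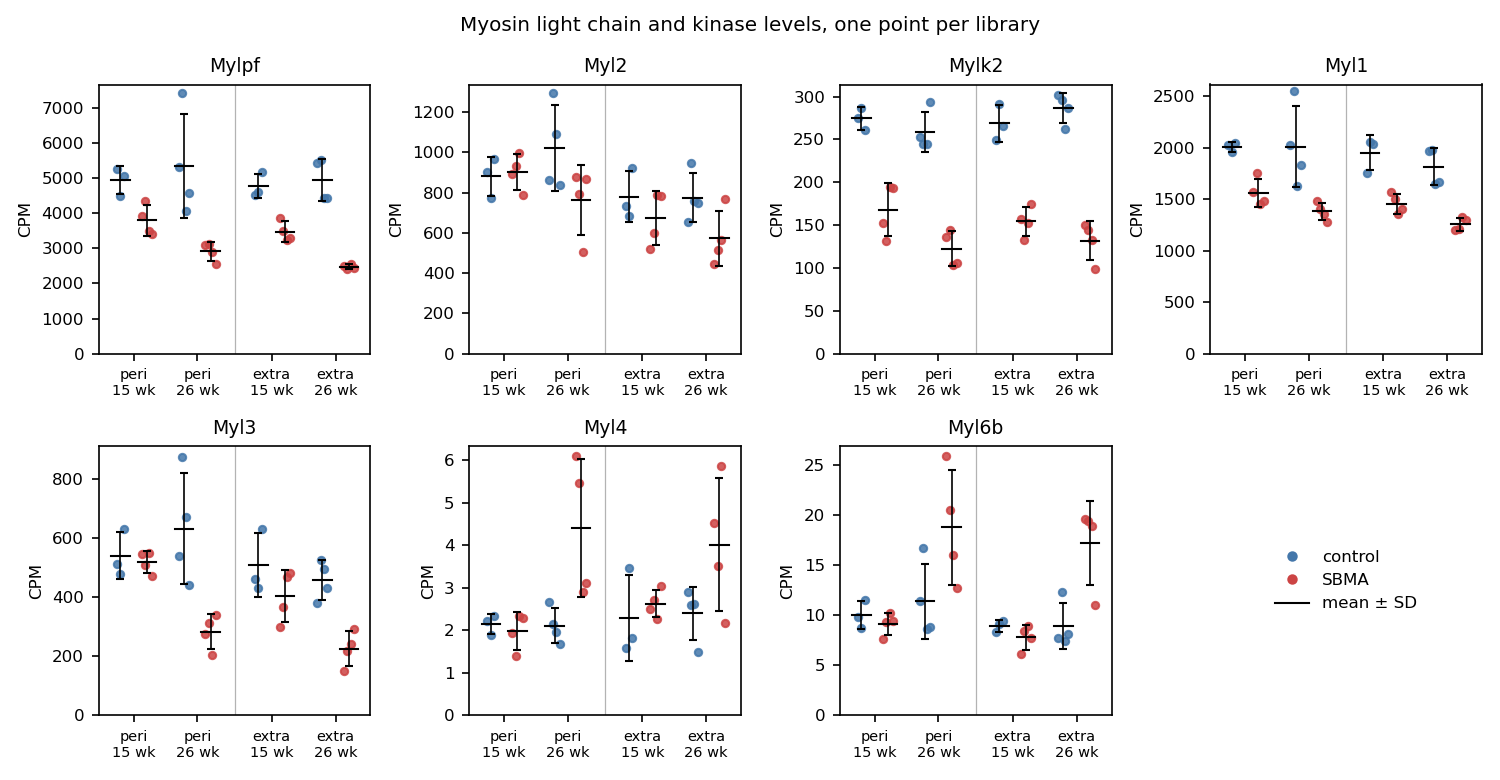
Level of each of the 7 genes in CPM (linear axes from 0), 1 point per library, for control (blue) and SBMA (red) in perisynaptic (peri) and extrasynaptic (extra) pieces at 15 and 26 weeks; bars are the mean and whiskers the SD. Mylk2 lies lower in every SBMA library (99.0 to 194 CPM) than in any control library (244.5 to 302 CPM), and at 26 weeks all SBMA libraries of Myl3 (149.8 to 338 CPM) lie below all control libraries of that age (379 to 875 CPM).

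Mylpf, the fast regulatory chain, was the most abundant member. In perisynaptic pieces at 26 weeks its level was 5331, 7433, 4077 and 4572 CPM in the 4 control mice and 3108, 3137, 2905 and 2550 CPM in the 4 SBMA mice. In extrasynaptic pieces at this age control mice had 5441, 5516, 4440 and 4453 CPM and SBMA mice 2502, 2428, 2562 and 2437 CPM. All SBMA libraries were below all control libraries in both regions, and the SBMA extrasynaptic values lay close together. The fall was 0.86 ± 0.16 on the log2 scale (adjusted p = 0.00241) in perisynaptic pieces, a level 1.82-fold lower. In extrasynaptic pieces the level was 2-fold lower (SE of the log2 fold change 0.09, adjusted p = 1.38e-06). Both calls held without each of the 8 mice in turn.

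At 15 weeks the difference in Mylpf was smaller. Perisynaptic pieces had 5277, 4503 and 5082 CPM in controls and 3917, 4370, 3511 and 3407 CPM in SBMA mice. Extrasynaptic pieces had 4534, 4625 and 5171 CPM in controls and 3883, 3513, 3238 and 3303 CPM in SBMA mice. Again the groups did not overlap in either region. The extrasynaptic log2 fold change was -0.46 ± 0.09 (adjusted p = 0.0252), and the perisynaptic value of -0.39 ± 0.17 missed the threshold (adjusted p = 0.665). The extrasynaptic call was kept in 3 of 7 fits that left out 1 mouse: it was lost without SBMA replicate 2, 3 or 4 or control replicate 3, with adjusted p from 0.0329 to 0.13 over the 7, and with total-count scaling (-0.26, adjusted p = 0.0915).

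Myl2, the slow and ventricular regulatory chain, did not pass the test in any comparison of SBMA with control. In perisynaptic pieces at 26 weeks it was 862, 1295, 1092 and 837 CPM in controls and 879, 795, 506 and 870.4 CPM in SBMA mice. Extrasynaptic pieces at 26 weeks had 654, 945, 756 and 748 CPM in controls and 445, 515, 566 and 766 CPM in SBMA mice. The groups overlapped in both regions, with SBMA replicate 3 lowest among perisynaptic and replicate 4 highest among SBMA extrasynaptic libraries. The log2 fold changes were -0.41 ± 0.18 (adjusted p = 0.135) and -0.44 ± 0.17 (adjusted p = 0.0647). Without SBMA replicate 4 the extrasynaptic value was -0.61 (adjusted p = 0.0118), and with all mice it was called by DESeq2 (adjusted p = 0.0482) and with no filter on low counts (adjusted p = 0.0446). At 15 weeks group means ranged from 673 to 904 CPM, with log2 fold changes of 0.03 and -0.22.

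Because both regulatory chains occupy the same place on myosin, the share of Myl2 in their summed level per kilobase was also compared. In extrasynaptic pieces at 26 weeks it was 12.2%, 16.6%, 16.5% and 16.3% in controls and 17.1%, 19.7%, 20.4% and 26.7% in SBMA mice. The groups did not overlap, with means of 15.4% ± 2.11 and 20.9% ± 4.08 (SD, n = 4 each; exact two-sided permutation p = 0.0286, the smallest that 4 against 4 allows, 0.131 after adjustment over 16 tests of shares). In perisynaptic pieces at that age the means were 18.4% ± 3.56 and 23.1% ± 4.82, and the groups overlapped (exact permutation p = 0.2). At 15 weeks the share was 16.5% to 18.0% in control and 19.8% to 24.75% in SBMA perisynaptic pieces, without overlap. The exact permutation p was 0.0571, the smallest that 4 against 3 allows (0.131 adjusted). Extrasynaptic pieces at 15 weeks overlapped, with means of 15.8% in control and 18.4% in SBMA mice (exact permutation p = 0.457). The level of this share depends on the length used: over all exons of each gene the 26-week means were 7.89% in control and 11.1% in SBMA extrasynaptic pieces, and 9.64% and 12.5% in perisynaptic pieces. The order of the 2 chains per kilobase, Mylpf above Myl2, was the same in all 30 libraries.

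Myl1, the fast essential chain, had the smallest fold change among the 4 members that fell at 26 weeks. Its perisynaptic levels at 26 weeks were 2030, 2548, 1629 and 1837 CPM in controls and 1484, 1403, 1361 and 1277 CPM in SBMA mice. In extrasynaptic pieces controls had 1965, 1981, 1648 and 1671 CPM and SBMA mice 1198, 1209, 1329 and 1294 CPM. Every SBMA library was below every control library. The log2 fold change was -0.53 ± 0.13 (adjusted p = 0.0104) in perisynaptic and -0.53 ± 0.08 (adjusted p = 0.000226) in extrasynaptic pieces. Scaling by total counts instead of TMM factors (trimmed mean of M values, which equalise most genes) moved the perisynaptic value to -0.29 (adjusted p = 0.173), and a fit of only these 8 libraries gave an adjusted p of 0.058.

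At 15 weeks Myl1 was 1957 to 2047 CPM in control and 1456 to 1753 CPM in SBMA perisynaptic pieces, a log2 fold change of -0.37 ± 0.13 (adjusted p = 0.518). In extrasynaptic pieces the ranges were 1759 to 2061 CPM and 1352 to 1573 CPM, with -0.42 ± 0.09 (adjusted p = 0.0287). The groups did not overlap in either region. The extrasynaptic call was kept in 2 of 7 fits that left out a mouse (lost without SBMA replicate 2, 3 or 4 or control replicate 2 or 3, adjusted p 0.0245 to 0.129 over the 7). With total-count scaling it was -0.23 (adjusted p = 0.112).

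Myl3, the slow and ventricular essential chain, had the most negative log2 fold change of the light chains at 26 weeks in both regions. At 26 weeks perisynaptic pieces had 539, 875, 671 and 442 CPM in controls and 273, 313, 204 and 338 CPM in SBMA mice. Extrasynaptic pieces had 379, 526.2, 496 and 429 CPM in controls and 149.8, 217, 239.7 and 293 CPM in SBMA mice. No SBMA library reached the lowest control library of its region. The perisynaptic level was 2.22-fold lower in the fit (log2 fold change -1.15 ± 0.19, adjusted p = 0.000973). The extrasynaptic log2 fold change was -1.03 ± 0.20 (adjusted p = 0.00109), and both calls held without each of the 8 mice in turn.

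At 15 weeks Myl3 overlapped between genotypes. Perisynaptic pieces had 512, 477 and 629 CPM in controls and 547, 509, 549 and 470.4 CPM in SBMA mice (log2 fold change -0.06, adjusted p = 0.986). Extrasynaptic pieces had 461, 431 and 630.4 CPM in controls and 296.5, 367.5, 469 and 482 CPM in SBMA mice (-0.33, adjusted p = 0.496). Of the essential chains' summed level per kilobase, Myl3 made up 14.7% ± 3.05 in SBMA and 21.0% ± 4.08 in control perisynaptic pieces at 26 weeks (SD, n = 4 each). In extrasynaptic pieces it was 13.0% ± 2.70 and 17.7% ± 2.64. Neither difference passed (exact two-sided permutation p = 0.0571 in each region, 0.131 adjusted). At 15 weeks the SBMA mean of this share was the higher, with 22.1% against 18.6% in perisynaptic pieces (exact permutation p = 0.114). In extrasynaptic pieces of that age it was 19.1% against 18.1% (exact permutation p = 0.743).

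Myl4, the atrial and embryonic essential chain, was the least abundant member, with 31 to 180 counts per library. In perisynaptic pieces at 26 weeks it was 2.66, 2.14, 1.953 and 1.68 CPM in controls and 6.10, 5.48, 2.905 and 3.12 CPM in SBMA mice. All SBMA values were above all control values, with replicates 1 and 2 highest. The rise was 2.10-fold (log2 fold change 1.07 ± 0.25, adjusted p = 0.00971) and was called without each mouse in turn. In extrasynaptic pieces controls had 2.91, 2.58, 2.62 and 1.49 CPM and SBMA mice 4.52, 3.504, 5.87 and 2.18 CPM. There the groups overlapped through SBMA replicate 4, and the value missed the threshold (0.76 ± 0.30, adjusted p = 0.0596). It was called without that mouse (0.96, adjusted p = 0.0149), by DESeq2 (adjusted p = 0.0377), with total-count scaling (0.96, adjusted p = 0.0159) and with no filter on low counts (0.80, adjusted p = 0.0283). At 15 weeks the ranges of the genotypes overlapped in both regions, from 1.38 to 3.46 CPM over all libraries.

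Myl6b, the non-muscle and slow muscle essential chain, was 11.4, 16.7, 8.61 and 8.79 CPM in control and 25.9, 20.6, 16.0 and 12.7 CPM in SBMA perisynaptic pieces at 26 weeks. Extrasynaptic pieces at this age had 7.72, 12.3, 7.36 and 8.12 CPM in controls and 19.7, 19.4, 18.9 and 11.0 CPM in SBMA mice. In both regions control replicate 2 overlapped the SBMA range. The log2 fold change was 0.96 ± 0.19 (adjusted p = 0.00145) in extrasynaptic pieces, called without each mouse in turn. The perisynaptic value of 0.74 ± 0.23 (adjusted p = 0.0398) was kept in 3 of 8 such fits. It was lost without SBMA replicate 1 (adjusted p = 0.127) or 2 (0.0907) or control replicate 1 (0.0811), 3 (0.103) or 4 (0.0961), and in a fit of only these 8 libraries (adjusted p = 0.118). At 15 weeks Myl6b was 6.07 to 11.5 CPM over all libraries, with log2 fold changes of -0.13 in perisynaptic and -0.20 in extrasynaptic pieces, neither called.

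Myl4 and Myl6b remained a small part of the essential chains. Their joint share of the summed level per kilobase at 26 weeks was 0.45%, 0.4525%, 0.383% and 0.377% in control and 1.48%, 1.24%, 0.973% and 0.805% in SBMA perisynaptic pieces. In extrasynaptic pieces it was 0.376%, 0.489%, 0.39% and 0.375% in controls and 1.44%, 1.30%, 1.29% and 0.678% in SBMA mice. The groups did not overlap in either region at 26 weeks. The means were 0.416% and 1.12% in perisynaptic and 0.407% and 1.18% in extrasynaptic pieces (exact two-sided permutation p = 0.0286, 0.131 adjusted over 16 tests). At 15 weeks the means were 0.391% and 0.445% in perisynaptic and 0.377% and 0.465% in extrasynaptic pieces (exact permutation p = 0.343 and 0.114).

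**Figure D2:**
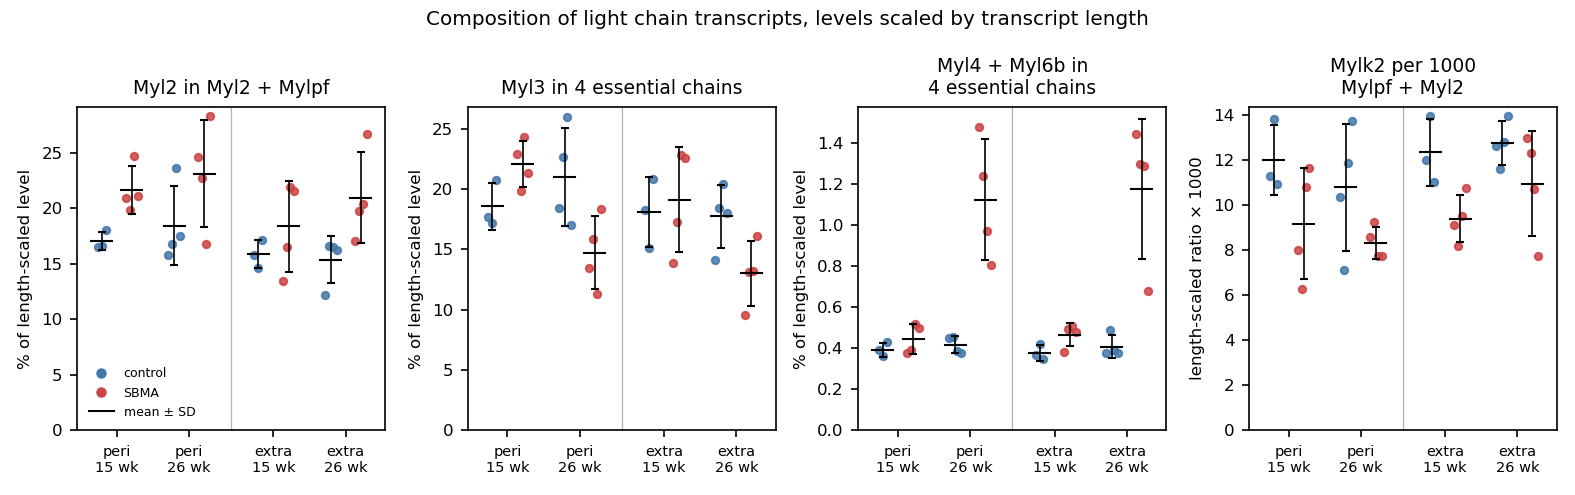
Share of Myl2 in the regulatory chains, of Myl3 and of Myl4 with Myl6b in the essential chains (percent of the summed level per kilobase of transcript), and the level of Mylk2 per 1000 of the regulatory chains, 1 point per library with mean and SD, control blue and SBMA red, axes from 0. The Myl4 and Myl6b share is 0.678% to 1.48% in SBMA libraries at 26 weeks and at most 0.52% in all other libraries.

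Mylk2, the kinase, had the most negative log2 fold change of the 7 at 15 weeks in both regions. In perisynaptic pieces at 15 weeks controls had 275, 287 and 261 CPM and SBMA mice 152.5, 132, 194 and 193.5 CPM. In extrasynaptic pieces controls had 249, 291 and 265 CPM and SBMA mice 157, 133, 152 and 174 CPM. The highest SBMA library was below the lowest control library in both regions. The extrasynaptic log2 fold change was -0.80 ± 0.12 (adjusted p = 0.00349), called without each of the 7 mice in turn (adjusted p 0.00626 to 0.017). The perisynaptic value was -0.71 ± 0.15 and missed the threshold (adjusted p = 0.0814), while DESeq2 called it (adjusted p = 0.00218), as did edgeR with no filter on low counts (adjusted p = 0.0394).

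At 26 weeks perisynaptic Mylk2 was 253, 245, 244.5 and 293 CPM in controls and 136, 144, 104 and 106 CPM in SBMA mice. Extrasynaptic pieces had 302, 295.5, 262 and 286 CPM in controls and 151, 144, 133 and 99.0 CPM in SBMA mice. The separation was complete in both regions. Log2 fold changes were -1.07 ± 0.14 (adjusted p = 0.000133) and -1.12 ± 0.12 (adjusted p = 5.56e-06), and both were called without each mouse in turn. Set against its substrates, the kinase stood at 8.31 ± 0.730 in SBMA and 10.8 ± 2.81 in control perisynaptic pieces per 1000 of Mylpf plus Myl2, all per kilobase (exact two-sided permutation p = 0.171). In extrasynaptic pieces it was 10.9 and 12.7 (exact permutation p = 0.2). The largest gap in this ratio was extrasynaptic at 15 weeks, with 9.39 in SBMA and 12.3 in control pieces (exact permutation p = 0.0571, the smallest that 4 against 3 allows, 0.131 adjusted).

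**Figure D3:**
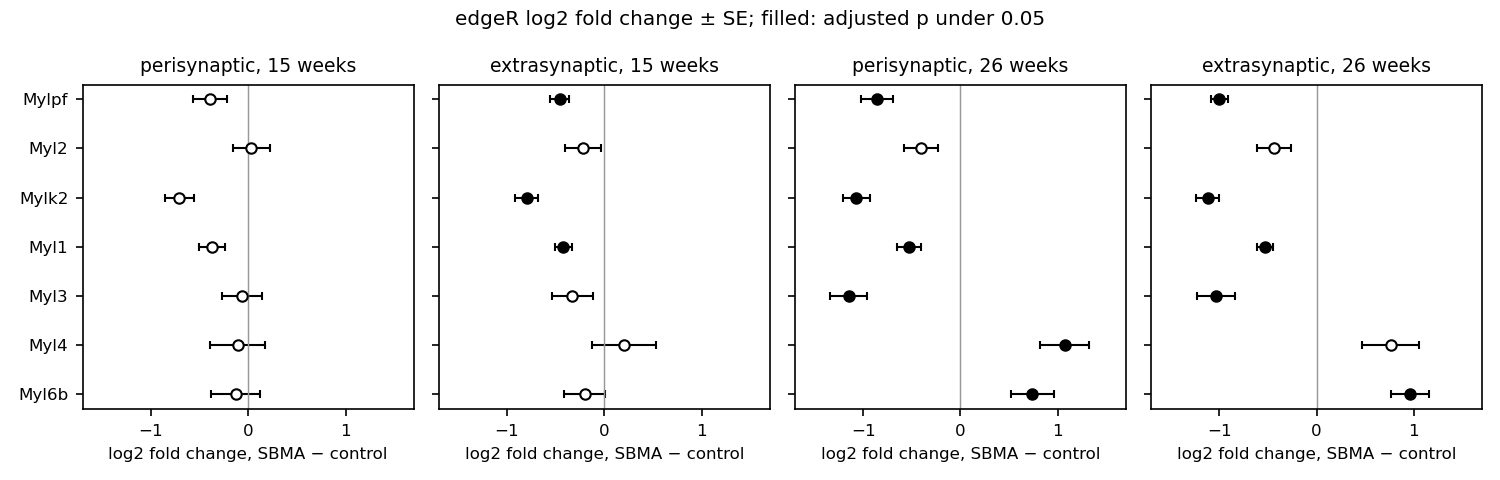
Log2 fold change of SBMA against control for each member (points) with its standard error (whiskers), by region and age; filled points passed an adjusted p under 0.05 in edgeR. At 26 weeks Mylpf, Mylk2, Myl1 and Myl3 lie left of 0 and Myl4 and Myl6b right of it in both regions, and at 15 weeks Mylk2 has the most negative value in both.

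The animals carry consecutive numbers in the labels, which fall into runs, and the 26-week mice form 2 runs of 2 SBMA and 2 control mice each. All 7 members kept their direction in both runs and regions at that age. For Mylpf the log2 ratio of means was -1.03 and -0.67 in perisynaptic and -1.15 and -0.83 in extrasynaptic pieces. For Mylk2 it was -0.83 and -1.36, then -1.02 and -1.24. The 15-week runs held 3 SBMA mice with 1 control and 1 SBMA mouse with 2 controls, and Mylk2 was lower in SBMA pieces of each (-0.79 and -0.50 perisynaptic, -0.76 and -0.68 extrasynaptic).

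Other light chain kinases and the subunits of myosin phosphatase were read from 7 genes. In SBMA at 26 weeks 2 of the 7 were higher and 1 lower in each region, at 15 weeks 1 was higher in extrasynaptic pieces, and none was called in perisynaptic pieces. Over all genes 14.0% were called in perisynaptic and 32.2% in extrasynaptic pieces at 26 weeks, and 1.22% in extrasynaptic pieces at 15 weeks, and nothing is read from the counts of this list or of the lists below. Mylk3, the cardiac light chain kinase, was 14.9, 14.6, 20.6 and 16.5 CPM in control and 37.0, 46.6, 50.1 and 44.98 CPM in SBMA perisynaptic pieces at 26 weeks. In extrasynaptic pieces at this age controls had 15.2, 16.0, 18.2 and 16.0 CPM and SBMA mice 59.3, 58.0, 51.65 and 38.85 CPM. Every SBMA library was above every control library. The log2 fold changes were 1.43 ± 0.15 (adjusted p = 1.33e-05) and 1.67 ± 0.14 (adjusted p = 7.16e-07). At 15 weeks extrasynaptic Mylk3 was 9.37, 13.7 and 14.1 CPM in controls and 26.1, 22.2, 22.8 and 23.6 CPM in SBMA mice (0.93 ± 0.15, adjusted p = 0.00538), and the perisynaptic value was 0.59 ± 0.16 (adjusted p = 0.246). Mylk2 fell and Mylk3 rose in each of these called comparisons. The summed level of 6 heart muscle markers at 26 weeks was 496 to 628 CPM in SBMA and 402 to 669 CPM in control perisynaptic pieces. In extrasynaptic pieces it was 354 to 452 CPM (mean 404) in SBMA and 290.5 to 366 CPM (mean 337) in controls. The ranges overlapped, the SBMA mean was the higher in both regions, and the part of these cells in the Mylk3 values was not tested. Among these markers Myh6 was at most 2.1 CPM. Nppa was at 0 in both control extrasynaptic groups and had counts in both SBMA extrasynaptic groups. The list also holds Myl7, Tnni3, Tnnt2 and Sln, whose single values are not given here.

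Mylk4, a further kinase of this family, was 175, 123, 365.5 and 519 CPM in control and 73.5, 88.5, 166 and 175 CPM in SBMA perisynaptic pieces at 26 weeks. Extrasynaptic levels were 186, 235.5, 346 and 511 CPM in controls and 118, 119, 164 and 179.5 CPM in SBMA mice. Controls varied widely, and the groups overlapped in perisynaptic but not in extrasynaptic pieces. In both genotypes and regions replicates 3 and 4, which form 1 run of animal numbers, were above replicates 1 and 2, which form the other. Within each run every SBMA library was below every control library of its region. The cause of the difference between runs was not tested. The extrasynaptic fall (-1.14 ± 0.26, adjusted p = 0.00411) was called without each mouse in turn. The perisynaptic fall (-1.22 ± 0.38, adjusted p = 0.0428) was kept in 3 of 8 fits and was lost without SBMA replicate 1, 2 or 3 or control replicate 3 or 4 (adjusted p up to 0.138). Ppp1r12a, a targeting subunit of myosin phosphatase, rose by 0.55 ± 0.07 (adjusted p = 2.46e-05) in extrasynaptic pieces at 26 weeks. In perisynaptic pieces of that age it rose by 0.40 ± 0.10 (adjusted p = 0.0171), a call lost without control replicate 1 (adjusted p = 0.0545). Mylk, the smooth muscle and non-muscle kinase, the catalytic subunit Ppp1cb and the subunits Ppp1r12b and Ppp1r12c were not called in SBMA against control.

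**Figure D4:**
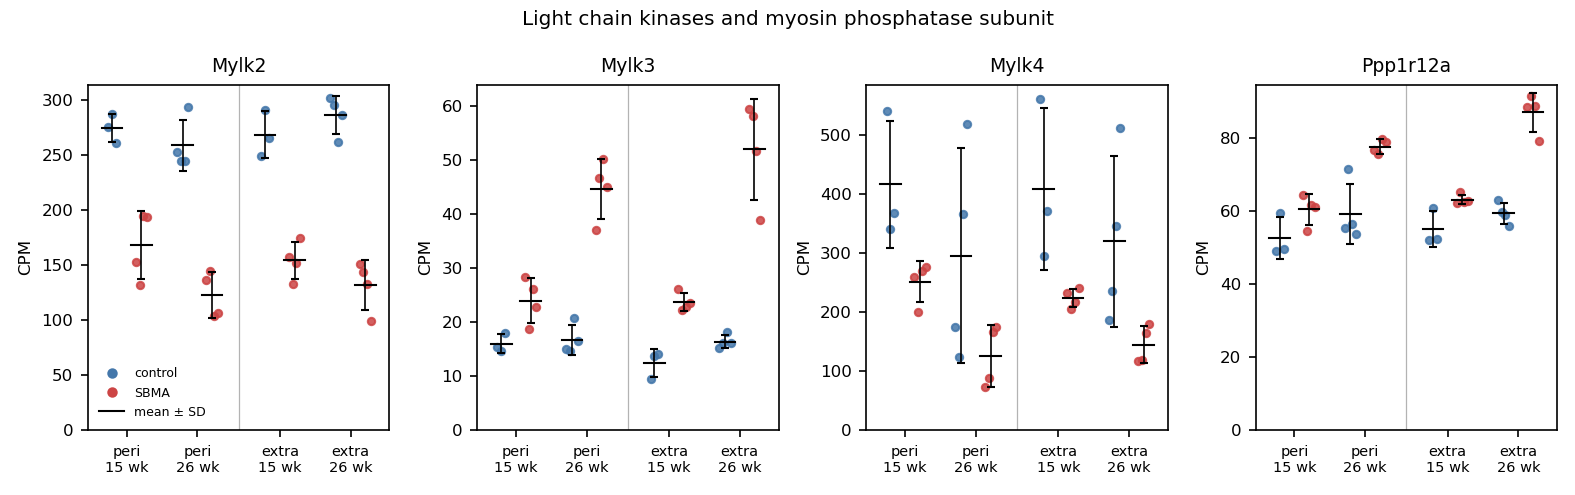
Levels in CPM of Mylk2, Mylk3, Mylk4 and the phosphatase subunit Ppp1r12a, 1 point per library with mean and SD, control blue and SBMA red, axes from 0. Mylk2 is lower and Mylk3 higher in SBMA at 26 weeks with no overlap, while Mylk4 varies from 123 to 519 CPM among control perisynaptic pieces of that age.

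Of 6 further light chain genes (Myl6, Myl7, Myl9, Myl10, Myl12a and Myl12b), 1 rose and 1 fell in perisynaptic pieces at 26 weeks. In extrasynaptic pieces 5 were tested, of which 1 rose and 2 fell, where 32.2% of all genes were called (14.0% in perisynaptic pieces). Myl12b, a non-muscle regulatory chain, fell by 0.66 (adjusted p = 0.00243) in extrasynaptic and by 0.57 (adjusted p = 0.0453) in perisynaptic pieces, the latter called in 2 of 8 fits without 1 mouse and not with total-count scaling (adjusted p = 0.263). Myl9, the smooth muscle regulatory chain, fell by 0.49 (adjusted p = 0.0164) in extrasynaptic pieces, lost with total-count scaling (adjusted p = 0.194) and without control replicate 2 or SBMA replicate 2 or 3. The summed level of 5 smooth muscle markers overlapped in these pieces, with 199.8 to 249.9 CPM in SBMA and 174.1 to 253.6 CPM in controls. Myl12a rose by 0.20 there (adjusted p = 0.0376, called in 3 of 8 fits without 1 mouse). Myl10 rose by 3.27 ± 0.69 (adjusted p = 0.005) in perisynaptic pieces from a mean of 0.0437 to 0.462 CPM, so on few reads. No gene of this list was called at 15 weeks.

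The heavy chains that these light chains bind, with myosin binding proteins, made a list of 12. At 26 weeks 1 rose and 4 fell in perisynaptic and 1 rose and 6 fell in extrasynaptic pieces, beside 14.0% and 32.2% of all genes called. Myh4, the fastest heavy chain, had the most negative value (-4.02, adjusted p = 3.33e-06, and -4.17, adjusted p = 3.95e-05), beyond the log2 fold changes of the fast light chains Mylpf and Myl1. Myh2 and Myh1, the other fast adult chains, had values of -1.60 and -1.07 in perisynaptic and of -1.39 and -1.19 in extrasynaptic pieces. Whether these values passed the threshold is not given here. Myh7, the slow chain partnered by Myl2 and Myl3, fell by 0.88 (adjusted p = 0.00532) and 0.75 (adjusted p = 0.0175), the latter lost without SBMA replicate 1 or control replicate 3 (adjusted p up to 0.0583). Myh8, the perinatal chain, rose by 2.39 and 2.38, and it was called at 15 weeks in extrasynaptic pieces (0.95, adjusted p = 0.0216), a call kept in 4 of 7 fits and lost without control replicate 1 or 3 or SBMA replicate 1 (adjusted p up to 0.129). The regenerating fibre markers overlapped between genotypes, with summed levels of 16 to 34 CPM.

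Change with age was compared within each genotype and region, between different animals. No run of animal numbers held mice of both ages, so age and run cannot be told apart in these comparisons. In SBMA perisynaptic pieces 3 of 7 members changed between 15 and 26 weeks, where 3.95% of genes were called (2.35% higher, 1.6% lower): Myl3 by -0.87 ± 0.19 (adjusted p = 0.0175), Myl4 by 1.16 ± 0.25 (adjusted p = 0.0152) and Myl6b by 1.05 ± 0.23 (adjusted p = 0.0151). Each of these calls was lost in some fits without 1 mouse. Myl3 was lost without SBMA 26-week replicate 1 (adjusted p = 0.0609) or 3 (0.0547) or 15-week replicate 1 (0.0547). Myl4 was lost without 26-week replicate 1 (0.0624) or 2 (0.0577) or 15-week replicate 2 (0.0582), and Myl6b without 26-week replicate 1 (0.0609) or 15-week replicate 1 (0.0587). In SBMA extrasynaptic pieces 3 of 7 changed, where 12.1% of genes were called (6.52% higher, 5.62% lower): Mylpf by -0.49 ± 0.09 (adjusted p = 0.00231), Myl3 by -0.85 ± 0.20 (adjusted p = 0.0114) and Myl6b by 1.15 ± 0.19 (adjusted p = 0.00139). These held without each of the 8 mice. Mylk2, low at 15 weeks already, had a change with age of -0.23 (adjusted p = 0.205) in those pieces. In SBMA perisynaptic pieces its change with age was -0.44 ± 0.14 (edgeR adjusted p = 0.0985), and DESeq2 called it (adjusted p = 0.0402). Unadjusted p was under 0.05 for 5 members in each region of SBMA mice. DESeq2 called 4 members in perisynaptic and 3 in extrasynaptic pieces.

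In control pieces no member was called with age in either region by edgeR, nor was any other gene (0% of genes called). No member had an unadjusted p under 0.05 and DESeq2 called none of them, while over all genes 891 perisynaptic and 1036 extrasynaptic genes had an unadjusted p under 0.05 and DESeq2 called 36 and 54.

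The difference between genotypes was itself compared between ages. In extrasynaptic pieces 1 member was called, where 1.73% of genes were (0.715% lower): the difference in Mylpf was larger at 26 weeks by -0.54 ± 0.13 (adjusted p = 0.0469). That call was kept in 4 of 15 fits without 1 mouse (adjusted p 0.0308 to 0.122) and was lost with RLE factors (adjusted p = 0.054), which called Myl6b instead (adjusted p = 0.0484). Myl6b had an interaction of 1.16 ± 0.28 just short of the threshold (adjusted p = 0.0504), and DESeq2 called it (adjusted p = 0.00443). In perisynaptic pieces edgeR called none of the 7, where 0.375% of genes were called, although Myl3, Myl4 and Myl6b had an unadjusted p under 0.05 and DESeq2 called 1, Myl3 (-1.10, adjusted p = 0.0158). The edgeR values were -1.09 ± 0.28 (adjusted p = 0.154) for Myl3 and 1.17 ± 0.38 (adjusted p = 0.297) for Myl4.

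Perisynaptic and extrasynaptic pieces of the same mouse were compared with a term for each animal, and edgeR called no member in any of the 4 groups. The shares of all genes called were 1.16% in control and 0.948% in SBMA mice at 15 weeks, and 1.18% and 2.07% at 26 weeks. Unadjusted p was under 0.05 for 0 members in controls at 15 weeks and for 3 in each other group, and DESeq2 called 0 in each. In SBMA mice at 26 weeks DESeq2 gave no adjusted p for Myl4 and Myl6b. The slow chain Myl2 had perisynaptic minus extrasynaptic values of 0.18 and 0.44 (control and SBMA at 15 weeks) and of 0.39 and 0.41 (at 26 weeks), with adjusted p of 0.283, 0.268 and 0.117 for all but the first of these. It was higher in the perisynaptic piece in 3 of 3, 4 of 4, 4 of 4 and 3 of 4 mice. Without SBMA replicate 3 the value at 26 weeks was 0.60 (adjusted p = 0.0427). Myl3 gave 0.10, 0.39, 0.43 and 0.34 in the same order, higher in 2 of 3, 3 of 4, 4 of 4 and 3 of 4 mice. Genotype by region was called for no member at either age (0% and 0.0124% of genes called, 0 members with an unadjusted p under 0.05, 0 by DESeq2), with values from -0.33 to 0.31.

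**Figure D5:**
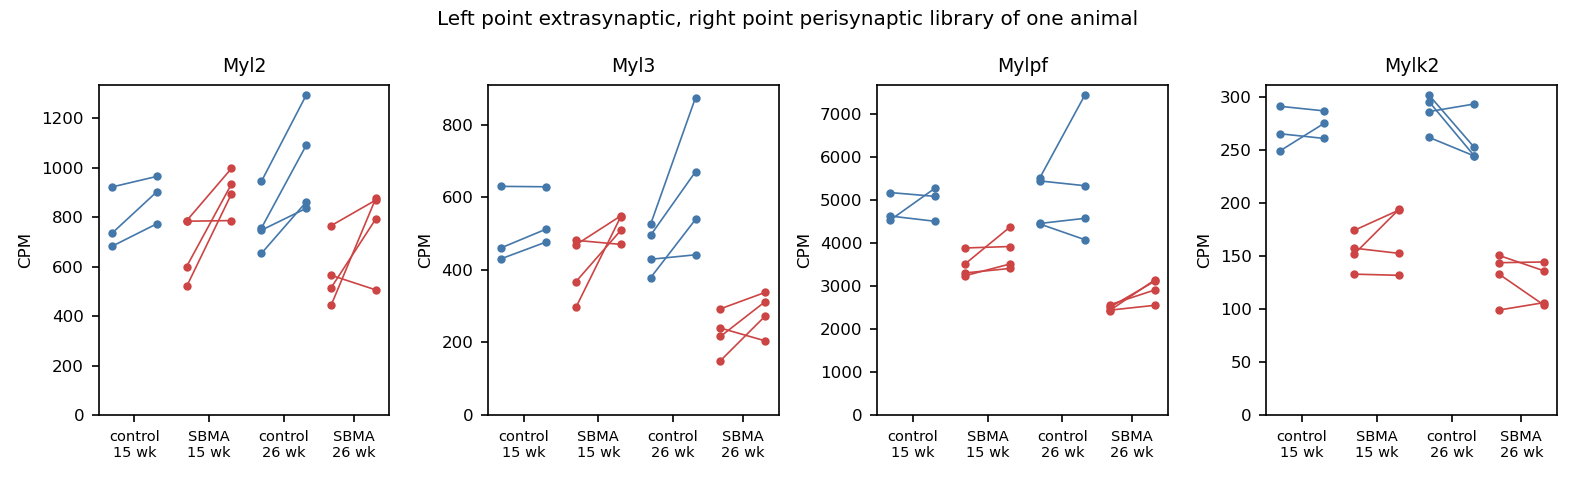
Levels in CPM (axes from 0) of Myl2, Myl3, Mylpf and Mylk2 in the extrasynaptic (left point) and perisynaptic (right point) piece of each mouse, joined by a line, control blue and SBMA red. Most Myl2 lines slope up towards the perisynaptic piece, in 14 of 15 mice, while the gap between genotypes in Mylk2 is wider than the gap between pieces of a mouse.

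To describe which genes ran alongside each member, log2 CPM was correlated over the 30 libraries among genes with a mean of 2 CPM or more. These libraries share animals, genotypes and a normalisation, so the values are descriptions. Myl1 ran closest with Mylpf (Pearson r = 0.968), Tpm1 (0.966) and the fast troponin gene Tnnt3 (0.964), and Mylpf with Tnni2 (0.985), Tnnt3 (0.979) and Snrpb (0.974). Myl3 ran with the slow thin-filament genes Tnnc1 (0.982), Tnni1 (0.961) and Tpm3 (0.957), and Myl2 with Tnnt1 (0.895), Tnnc1 (0.863) and Myl3 (0.857). Among the members that rose, Myl6b was closest to Des (0.918), Cox8a (0.907) and Psmd13 (0.907), and Myl4 to Uchl1 (0.862), Map1b (0.809) and Plekho1 (0.807). Mylk2 had Ptp4a3 (0.925), Htatsf1 (0.921) and Teddm2 (0.918) as its nearest genes.

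The 250 bases before the RefSeq transcription start (GRCm38.p6) are shown for Mylpf and Myl6b, a member that fell and a member that rose, with the E-box letters CANNTG, the core bound by myogenic bHLH factors, in capitals. Mylpf lies on the plus strand at chr7:127211358-127211607 and Myl6b on the minus strand at chr10:128498686-128498935.
Mylpf: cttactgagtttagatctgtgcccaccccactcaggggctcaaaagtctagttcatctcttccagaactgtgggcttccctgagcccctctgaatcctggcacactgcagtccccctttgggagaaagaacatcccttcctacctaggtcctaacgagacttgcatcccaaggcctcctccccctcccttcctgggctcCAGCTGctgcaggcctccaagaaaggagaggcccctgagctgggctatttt
Myl6b: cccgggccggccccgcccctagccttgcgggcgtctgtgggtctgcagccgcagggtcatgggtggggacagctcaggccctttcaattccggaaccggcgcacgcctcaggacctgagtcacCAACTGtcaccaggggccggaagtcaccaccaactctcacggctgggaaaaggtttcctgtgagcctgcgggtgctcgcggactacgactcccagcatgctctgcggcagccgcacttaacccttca
Each window holds 1 E-box, and 66.2% of 32851 mouse promoter windows of this length hold at least 1. CANNTG matches itself on the other strand, so 1 search covers both strands. The Myl4 window held none. A match is a description of letters in a window and not of a bound site.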

How the data were processed

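Raw counts per gene in 30 libraries were deposited by the authors, who made them with featureCounts on mm10, per the submitters' processing notes. Its aligner, annotation release and strand setting: not given in the sources used here. RNA came from miRNeasy columns with DNA digestion, and the KAPA Stranded mRNA kit was used for sequencing libraries, per the labels' protocols. Gene identifiers were matched to GENCODE vM21, and 33064 of 33076 matched. The 12 others held 0.00171% of counts.

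The 7 members, gene lists, tests and alternatives were chosen with earlier results of these data known. The members are named in every comparison, any gene of a context list may be named beside the count of its list, and 3 genes of like pattern are named per member. Part of 1 context list is not reported here.

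The counts went into edgeR 4.0.16 (R 4.3.3) and its quasi-likelihood test, after filterByExpr (minimum count 10, minimum total 15) and TMM scaling, with Benjamini-Hochberg adjustment over all genes. Each region was fitted alone (15 libraries, 4 group means), and regions were compared in a fit of all 30 libraries with an animal term. Errors of log2 fold changes are standard errors from the fit. Levels are CPM on TMM-scaled library sizes, and log2 CPM used a prior count of 2. The fit was also run on simulated counts with known fold changes and a fixed spread for all genes, and no result above rests on that run. Shares used the length of the main transcript and exact permutation tests (SciPy 1.17.1), added after seeing the data. Near-identical copies were searched with BLAST+ 2.17.0. Alternatives were DESeq2 1.42.0, RLE factors, total-count scaling, no filter, only the groups compared, blocks by replicate number or run of animal numbers, and each mouse left out. For genes outside the 7 members the scaling and left-out fits were added after seeing the data. With total-count scaling the median log2 fold change of all genes was 0.24 in perisynaptic and 0.18 in extrasynaptic pieces at 26 weeks (-0.02 and -0.03 with TMM) and 0.07 and 0.19 at 15 weeks (-0.01 in each with TMM), so falls are smaller and rises larger on that scale. Reads carry no molecular identifiers, and errors are those between mice.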

Additional observations from a re-analysis of the deposited data

Results flagged for a closer look

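Within groups of 4 libraries, 42 were examined for a library far from the other 3, and chance alone flags about 1 in 20. Myl6b in control extrasynaptic pieces at 26 weeks had 1 high library, replicate 2 at 12.32 CPM, with a gap to the next that was 0.848 of the range. Myl6b in SBMA extrasynaptic pieces at 26 weeks had 1 low library, replicate 4 at 10.98 CPM (0.910 of the range). Mylk2 in control perisynaptic pieces at 26 weeks had 1 high library, replicate 4 at 293.4 CPM (0.832 of the range). The genotype difference of Mylpf in extrasynaptic pieces differed between ages by -0.54 on the log2 scale (edgeR, adjusted p = 0.0469).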

How the results depend on the processing

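Of 1496 log2 fold changes of the 7 members recomputed under the alternatives, 1420 kept their side of the threshold, 49 lost a call and 27 gained one. Signs changed in 67, none of which had been called. Counts of members called moved as follows. In SBMA against control, perisynaptic at 15 weeks went from 0 to 1 with DESeq2 and with no filter, and extrasynaptic at 15 weeks from 3 to 1 with total-count scaling and with the replicate block, to 2 with the run block, with 1 to 3 when a mouse was left out. At 26 weeks the extrasynaptic count went from 5 to 7 with DESeq2, no filter, the replicate block and without SBMA replicate 4, each adding Myl2 and Myl4 (with the replicate block -0.45, adjusted p = 0.0286, and 0.71, adjusted p = 0.0256), and to 6 with total-count scaling. The perisynaptic count went from 6 to 4 with only the groups compared (Myl1 and Myl6b lost), to 5 with total-count scaling and to 5 or 6 without a mouse. The change with age in SBMA perisynaptic pieces went from 3 to 4 with DESeq2 and to 0 with the replicate block, and ranged from 0 to 3 without a mouse. Genotype by age in perisynaptic pieces went from 0 to 1 with DESeq2. In extrasynaptic pieces RLE factors exchanged Mylpf for Myl6b, and the count went from 1 to 2 with DESeq2 and with no filter, to 0 with total-count scaling, the replicate block and the run block, and ranged from 0 to 1 without a mouse. With no filter, perisynaptic minus extrasynaptic went from 0 to 2 in SBMA at 15 weeks and in controls at 26 weeks, and to 3 in SBMA at 26 weeks, where it was 0 to 1 without a mouse. The cause of these moves was not tested. Over all genes, total-count scaling turned the split of higher and lower calls to 4259 and 383 in perisynaptic and 5332 and 954 in extrasynaptic pieces at 26 weeks, from 1265 and 939 and from 2502 and 2505. Extrasynaptic at 15 weeks it was 2248 and 108, from 86 and 104. Mice with the same replicate number in both genotypes did not deviate together throughout (correlations from -0.222 to 0.398), so the number was not read as a pairing. Group sizes of 3 and 4 limit the precision, as do the 31 to 180 counts of Myl4.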
